A study of Mus musculus with 16 samples.

Results

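Microglia, the resident macrophages of the brain, were compared between mice of an Alzheimer's disease (AD) model in which Rack1 was also conditionally knocked out (AD CKO) and mice of the same model with intact Rack1 (AD WT). The comparison rests on 4 libraries, 2 per group, out of 16 in the series, which also profiled astrocytes and microglia of mice without the model. The genotype labels were Rack1 CKO AD for AD CKO and WT AD for AD WT. All 8 microglia libraries were normalised and fitted together, so that 2 libraries with the genotype Rack1 CKO and 2 with the genotype WT, which lack the AD model, also contributed to the estimate of spread. The AD model is thus carried by both groups compared, and the question is what loss of Rack1 changed on that background. The transgenes of the model, the driver of Cre, whether the AD WT mice carried Cre or floxed alleles, the age and sex of the mice, the way the cells were isolated and whether a library was a pool of animals are not given in the sources used here. Where libraries of a group came from 1 source of RNA, p-values measure technical spread only.

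RACK1 is a WD-repeat protein that sits on the head of the small ribosomal subunit near the mRNA exit channel. It helps ribosomes to sense collisions and stalling, and it also binds protein kinase C, Src family kinases and receptor complexes, among them the type I interferon receptor. Microglia survey the brain, prune synapses and take up debris and amyloid, and around plaques they lower homeostatic genes such as P2ry12 and Tmem119 and raise disease-associated genes such as Apoe, Trem2, Cst7 and Lpl.

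Total counts ran from 27741882 to 33933068 over the 8 microglia libraries, with 29955135 and 33933068 in AD CKO and 30041969 and 29816708 in AD WT. Libraries of the same group correlated at 0.985 or more across genes, where genes are not replicates. Values are given as CPM, counts divided by the TMM-scaled size of the library. Log2 fold changes are AD CKO over AD WT with their standard error after ±, from edgeR's quasi-likelihood F-test over 17318 genes. A gene is said to have risen, fallen or changed where the Benjamini-Hochberg adjusted p over all those genes was under 0.05. The first principal component, with 36.5% of the variance, set the 4 knockout libraries apart from the 4 with intact Rack1. The difference between the knockout effect with and without the AD model is called the interaction below, a positive value meaning a higher log2 fold change within the model.

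The libraries of the groups also differed in sex-linked RNA. The Y-linked genes Ddx3y, Eif2s3y, Kdm5d and Uty summed to 161 and 151 CPM in AD CKO, 70.5 and 68.4 CPM in AD WT, 1.43 and 1.26 CPM in CKO and 19.7 and 14.9 CPM in WT libraries. Xist, which female cells transcribe from the inactive X chromosome, stood at 84.7 and 79.3 CPM in AD CKO, 143 and 156 CPM in AD WT, 259 and 237 CPM in CKO and 191 and 188 CPM in WT libraries. The AD CKO libraries thus held the most Y-linked RNA and the least Xist, and both kinds of RNA were present together in the AD CKO, AD WT and WT libraries. Of 10 sex-linked transcripts tested 4, all Y-linked, rose and 5 fell, against 17.0% and 15.0% of all genes. The makeup by sex and the knockout cannot be told apart for genes that depend on sex.

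Markers of the labelled cell type were present in every library. All 11 microglial markers, among them Csf1r, P2ry12 and Tmem119, were detected, and they summed to 31430 and 32350 CPM in AD CKO and 43080 and 43480 CPM in AD WT libraries. Among these 11, 2 rose and 5 fell, and 1 rose with no filter on low counts or without AD WT replicate 2, AD CKO replicate 1 or CKO replicate 1. Markers of several other cell types were lower in AD CKO. Beside the counts of markers here, 17.0% of all genes rose and 15.0% fell. The 10 oligodendrocyte markers summed to 2268 and 2319 CPM in AD CKO and 3759 and 3761 CPM in AD WT libraries, and 9 of the 10 fell, among them Mbp (−0.70). Sums for astrocyte markers (9 of 11 fell) were 321 and 317 CPM in AD CKO and 434 and 442 CPM in AD WT, and those for endothelial markers (8 of 10 fell) were 561 and 555 CPM in AD CKO and 810.4 and 802 CPM in AD WT. Mural cell markers (8 of 9 fell) summed to 246 and 248 CPM in AD CKO and 358 and 366 CPM in AD WT, and neutrophil markers (7 of 8 fell) to 278 and 292 CPM in AD CKO and 446 and 442 CPM in AD WT. The 4 globin genes tested fell, with sums of 1.71 and 2.36 CPM in AD CKO and 11.8 and 10.9 CPM in AD WT, although reads of near-identical globin genes may have been split between them. Neuronal markers (1 rose and 1 fell of 12) were low in all 4 libraries, 28.3 and 21.6 CPM in AD CKO and 27.6 and 25.9 CPM in AD WT. Monocyte markers (2 rose and 2 fell of 8) summed to 156 and 153 CPM in AD CKO and 193 and 198 CPM in AD WT, and T and NK cell markers (1 rose and 1 fell of 11) to 8.32 and 8.08 CPM in AD CKO and 8.14 and 7.29 CPM in AD WT. The counts of these short lists moved with the library left out. No neuronal marker rose with either AD WT library or AD CKO replicate 1 left out, and 2 fell without AD CKO replicate 1. In monocytes 1 rose and 1 fell without AD WT replicate 1 or AD CKO replicate 1, and 1 rose without AD WT replicate 2. No T and NK cell marker rose with either AD WT library or AD CKO replicate 1 left out, with DESeq2, with the 1 CPM filter or with the 4 libraries alone, and none fell without AD WT replicate 2 or AD CKO replicate 1. Oligodendrocyte precursor markers ran the other way as a sum, at 48.6 and 59.1 CPM in AD CKO and 28.1 and 32.0 CPM in AD WT, although 1 rose and 2 fell of 7 and none fell without AD CKO replicate 1. Ependymal and choroid markers (2 rose of 8, or 1 without AD CKO replicate 1) summed to 756 and 800.5 CPM in AD CKO and 686 and 687 CPM in AD WT. Fibroblast markers (1 fell of 7) summed to 10.6 and 12.5 CPM in AD CKO and 17.3 and 16.5 CPM in AD WT, and markers of B and plasma cells (2 rose and 3 fell of 8) to 533 and 518 CPM in AD CKO and 685 and 685 CPM in AD WT. In bulk samples, fewer cells of a type and less RNA per cell cannot be told apart.

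**Figure D1:**
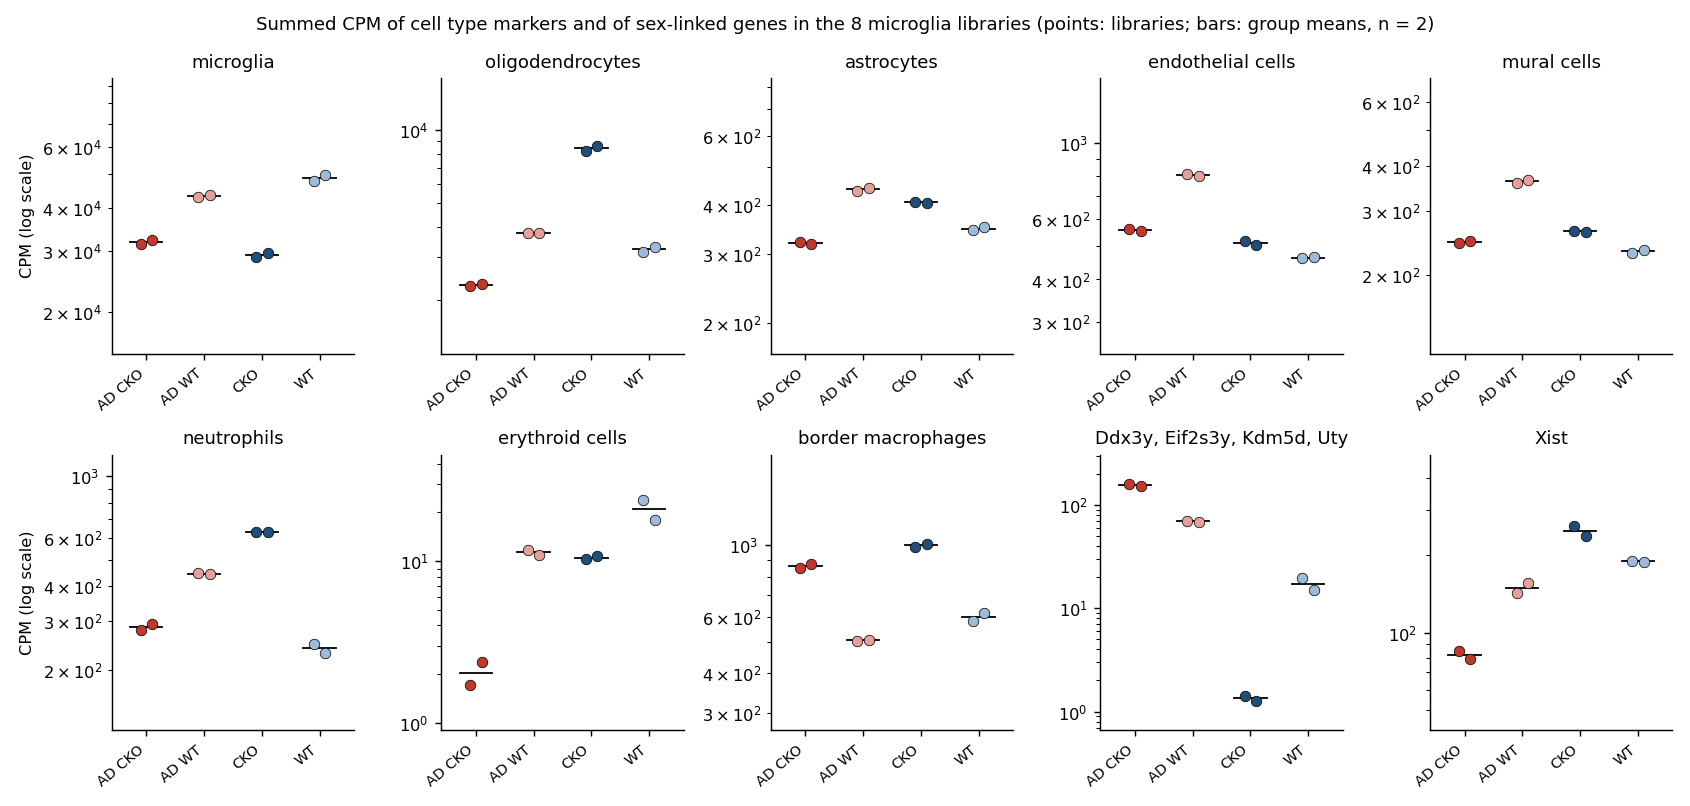
Summed CPM (log axis) of the markers of 8 cell types, of 4 Y-linked genes and of Xist in the 8 microglia libraries. Each point is a library and each bar the mean of a group (n = 2), with AD CKO left of AD WT and CKO left of WT. The oligodendrocyte sum was 2268 and 2319 CPM in AD CKO and 3759 and 3761 CPM in AD WT libraries, while the border macrophage sum ran the other way, at 850.3 and 873 CPM in AD CKO and 505 and 508 CPM in AD WT.

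Rack1 itself fell in AD CKO microglia but was not lost. Rack1, a protein-coding gene (ENSMUSG00000020372) on the plus strand of chromosome 11 from 48800332 to 48806434 in mm10, stood at 47.2 and 47.8 CPM in AD CKO and 113 and 115 CPM in AD WT libraries (−1.26 ± 0.06, adjusted p = 2.04e-15). The groups did not overlap, and the libraries without the model gave 40.4 and 42.0 CPM in CKO and 98.1 and 95.2 CPM in WT libraries. The interaction was −0.03 ± 0.09 (adjusted p = 0.867), so no difference in the size of the fall was detected. RNA of cells in which the gene was not recombined and RNA of recombined cells outside the deleted part both count here, and the deleted part is not given in the sources used here.

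Many genes differed between AD CKO and AD WT, most of them by little. The part of sex-linked differences and of RNA from other cells in these calls was not tested. Of 17318 genes, 2941 (17.0%) rose and 2601 (15.0%) fell, 5542 (32.0%) in all, with a median absolute log2 fold change of 0.46 among them. At least 2-fold higher were 431 of them and at least 2-fold lower were 623, and at 8-fold the counts were 60 and 50. In 65.5% of all genes tested the 2 AD CKO values lay wholly above or below the 2 AD WT values, so that groups that do not overlap are common here. The median over all genes was −0.00. In the fifth of genes with the lowest mean, up to 0.995 CPM over the 8 libraries, 2.52% rose and 4.26% fell, against 31.1% and 21.9% in the fifth with the highest mean.

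Cxcl13 had the largest increase among the genes chosen by rule, which were the 12 largest changes in each direction among genes that changed, averaged at least 5 CPM over the 4 libraries and had groups that did not overlap. Cxcl13, a chemokine that draws B cells to lymphoid follicles (mm10, chromosome 5, 95956951 to 95961068, plus strand), stood at 349 and 351 CPM in AD CKO and 1.33 and 1.24 CPM in AD WT libraries. Its log2 fold change was 8.09 ± 0.08 (adjusted p = 4.13e-31), and the AD WT values rested on 39 and 36 counts. Its receptor gene Cxcr5 did not pass the filter on low counts. Gdf3, which encodes a TGF-beta superfamily ligand, stood at 39.6 and 39.9 CPM in AD CKO and 0.409 and 0.584 CPM in AD WT libraries (6.31 ± 0.16, adjusted p = 3.25e-21). Both genes were close to the limit of detection in AD WT and clearly transcribed in AD CKO. Phlda3, a p53 target that restrains Akt, gave 50.7 and 51.5 CPM in AD CKO and 2.04 and 3.37 CPM in AD WT libraries (4.24 ± 0.18, adjusted p = 3.49e-10), and Cd40, the costimulatory receptor for CD40 ligand on T cells, gave 31.4 and 32.9 CPM in AD CKO and 2.90 and 2.34 CPM in AD WT libraries (3.62 ± 0.14, adjusted p = 3.76e-17).

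The other genes among the 12 had varied roles. Ikbke, the kinase IKK-epsilon that acts between innate sensors and interferon regulatory factors, stood at 19.8 and 22.3 CPM in AD CKO and 1.16 and 1.68 CPM in AD WT libraries (3.88 ± 0.20, adjusted p = 8.49e-15). Clec12a, an inhibitory lectin receptor of myeloid cells, stood at 78.7 and 77.7 CPM in AD CKO and 7.90 and 8.35 CPM in AD WT libraries (3.27 ± 0.09, adjusted p = 3.95e-21), and Ms4a7, a tetraspanning membrane protein that border macrophages express more than microglia do, at 133 and 130 CPM in AD CKO and 15.7 and 17.2 CPM in AD WT libraries (3.0 ± 0.07, adjusted p = 2.99e-22). None of these 3 genes had overlapping groups. The rest were the non-classical MHC class I gene H2-M2 (4.12), the p53-responsive kinase inhibitor Inka2 (3.54), the elastic fibre protein Emilin1 (3.01), the lysozyme Lyz1 (2.99), whose reads may be shared with Lyz2, and the processed pseudogene Rbpj-ps3 (4.92), whose reads may be shared with Rbpj.

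Lgi2 had the largest decrease by the same rule, and the genes that fell by this rule had varied roles. Lgi2, a secreted leucine-rich repeat protein, stood at 0.479 and 1.09 CPM in AD CKO and 18.4 and 18.9 CPM in AD WT libraries (−4.54 ± 0.28, adjusted p = 6.22e-11). Mrc2, a receptor that takes up collagen, stood at 47.6 and 51.1 CPM in AD CKO and 207 and 228 CPM in AD WT libraries (−2.14 ± 0.07, adjusted p = 5.71e-17), and Baiap2l2, which bends membranes, at 7.87 and 9.23 CPM in AD CKO and 49.4 and 45.5 CPM in AD WT libraries (−2.47 ± 0.12, adjusted p = 2.19e-15). The AD CKO libraries were below the AD WT libraries for each of these. Gpr165, an orphan receptor, gave 6.50 and 8.87 CPM in AD CKO and 34.2 and 34.9 CPM in AD WT libraries (−2.16 ± 0.11). The others were Erdr1 (−3.07), Gprasp2 (−2.54), Tmem163 (−2.39) (a zinc transporter), Pacsin1 (−2.36) (an endocytic adaptor), Tnfrsf17 (−2.22) (BCMA, a receptor for BAFF and APRIL), Igf2bp2 (−2.03) (an mRNA-binding protein), Fabp3 (−2.02) (a fatty acid-binding protein) and the lectin receptor Clec1a (−1.93). Markers of oligodendrocytes and of vascular cells were lower in the same libraries, as given above, and their part in the genes that fell was not tested.

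**Figure D2:**
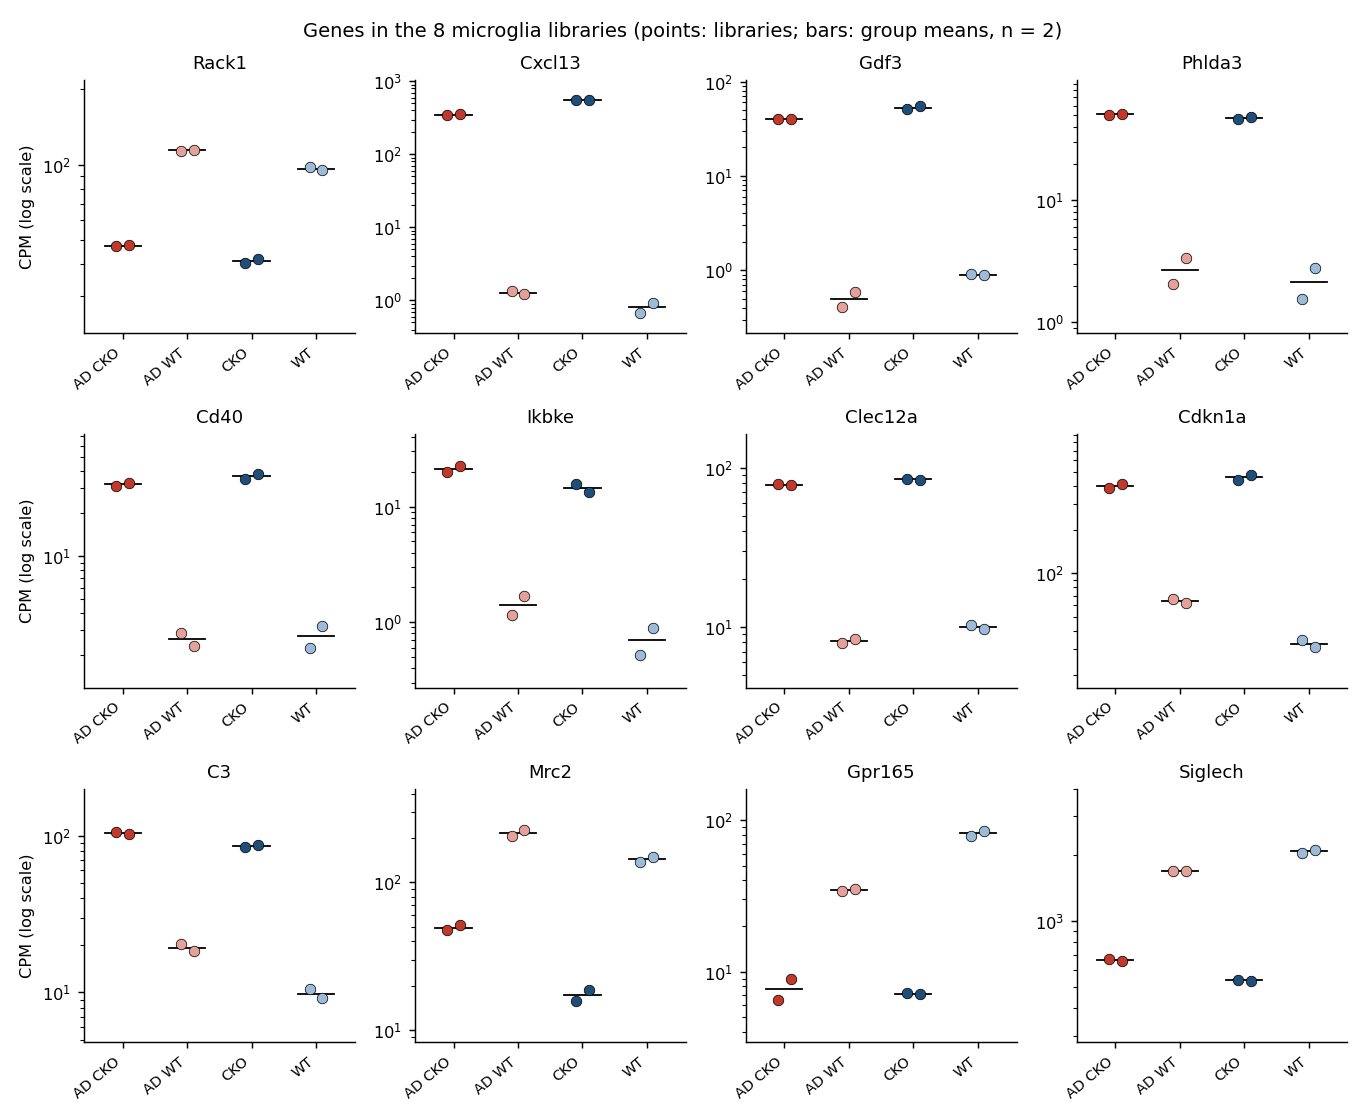
CPM (log axis) of 12 genes in the 8 microglia libraries, with each library as a point and group means as bars (n = 2), AD CKO left of AD WT and CKO left of WT. Cxcl13 had 349 and 351 CPM in AD CKO and 1.33 and 1.24 CPM in AD WT libraries, and Mrc2 had 47.6 and 51.1 CPM in AD CKO and 207 and 228 CPM in AD WT. The panels show the spread of the 2 libraries of a group, which may be technical only. Each gene differed in the same direction between CKO and WT.

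Interferon-stimulated genes rose broadly. Type I interferon signals through IFNAR1 and IFNAR2, the kinases JAK1 and TYK2, and a transcription factor complex that binds the interferon response element of antiviral genes. Of 47 such genes tested, 40 (85.1%) rose and none fell, against 17.0% and 15.0% of all genes. Gbp7 (−0.18) did not pass but fell under 9 of the 16 alternatives, among them RLE size factors (−0.19), both other filters, the 4 libraries alone and the replicate block. The median log2 fold change was 0.64, against −0.00 for all genes. Oasl2, a homologue of oligoadenylate synthetases, stood at 97.8 and 92.1 CPM in AD CKO and 36.2 and 36.1 CPM in AD WT libraries (1.39 ± 0.07, adjusted p = 1.48e-15). Bst2, which tethers budding virus particles to the cell, stood at 167 and 193 CPM in AD CKO and 69.2 and 73.5 CPM in AD WT libraries (1.33 ± 0.06, adjusted p = 1.06e-14). Both were higher in each AD CKO library than in each AD WT library.

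Members of several classes of antiviral genes rose. Ifit3, which binds foreign RNA with its IFIT partners, stood at 95.7 and 85.4 CPM in AD CKO and 50.2 and 48.7 CPM in AD WT libraries (0.87), and its relatives Ifit1 (0.92) and Ifit2 (0.78) rose as well. Of the guanylate-binding and nucleic acid-sensing families, the examples that rose were Gbp6 (1.79), Ifi207 (1.45) and Zbp1 (1.10), the last a sensor of Z-form nucleic acids that triggers cell death. The radical enzyme Rsad2 (1.01), the ubiquitin-like Isg15 (0.63) and its protease Usp18 (0.65), which also restrains the receptor, were among the others. Besides Gbp7, Isg20 (0.37), Mx2 (0.09), Gbp3 (−0.02) and Ifi35 (−0.09) did not pass, nor did 2 others. Oas, Ifi and Gbp genes belong to near-identical families, so the share of reads given to each member is uncertain.

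Of 24 genes for interferon receptors, sensors and transcription factors, 14 (58.3%) rose and 3 (12.5%) fell, with a median of 0.21. Of all genes 17.0% rose and 15.0% fell. Without AD WT replicate 1, 9 rose. Stat2, a transcription factor of the pathway, stood at 80.8 and 76.0 CPM in AD CKO and 49.1 and 49.7 CPM in AD WT libraries (0.66 ± 0.07, adjusted p = 2.87e-08). The receptor genes Ifnar1 (0.44) and Ifnar2 (0.44), the RNA sensor Ddx58 (0.41) and the adaptor Mavs (0.44) rose by less. Ikbke, given above, rose most. The feedback inhibitor Socs3 (−0.58) and the interferon gamma receptor chain Ifngr1 (−0.19) fell. Ifnb1, the gene for interferon beta, did not pass the filter on low counts.

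Many promoters of these genes hold the element that the pathway is known to use. The interferon response element was searched as GAAA, any 2 bases and GAAA on both strands, from 250 bases before to 50 bases after each RefSeq start (GRCm38.p6, the same assembly as mm10). It stood in 22 of 41 promoters of the interferon list (53.7%), which cover 34 of its 47 genes, against 3.44% of 32851 promoters in all. The NF-kB consensus, searched in the same way, stood in 8 of those 41 promoters (19.5%), against 8.46% of all promoters. Matches describe letters only and are not evidence of binding. The 250 bases before the start are shown for Ifit3 and Bst2 of the interferon list and for the chemokine genes Cxcl10 and Cxcl13, with matches to either motif in capitals. Cxcl10 holds 1 interferon element and, nearer to the start, NF-kB matches. Ifit3 holds a pair of interferon elements. Bst2 holds an NF-kB match followed by 2 interferon elements that overlap each other. Cxcl13, which had the largest increase among the genes chosen by rule, holds neither in this window, which says nothing of other factors or more distant sequence.
Cxcl10 (chr5:92348890-92349139, minus strand): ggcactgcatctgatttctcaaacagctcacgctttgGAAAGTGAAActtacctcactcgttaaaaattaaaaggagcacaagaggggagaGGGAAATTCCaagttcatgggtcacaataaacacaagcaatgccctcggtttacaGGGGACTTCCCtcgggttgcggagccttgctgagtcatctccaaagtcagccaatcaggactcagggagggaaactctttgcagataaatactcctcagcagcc
Ifit3 (chr19:34583279-34583528, plus strand): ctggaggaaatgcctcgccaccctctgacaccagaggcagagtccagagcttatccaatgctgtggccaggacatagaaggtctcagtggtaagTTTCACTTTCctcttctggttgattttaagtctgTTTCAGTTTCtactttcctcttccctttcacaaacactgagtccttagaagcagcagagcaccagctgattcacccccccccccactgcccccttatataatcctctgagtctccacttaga
Bst2 (chr8:71537473-71537722, minus strand): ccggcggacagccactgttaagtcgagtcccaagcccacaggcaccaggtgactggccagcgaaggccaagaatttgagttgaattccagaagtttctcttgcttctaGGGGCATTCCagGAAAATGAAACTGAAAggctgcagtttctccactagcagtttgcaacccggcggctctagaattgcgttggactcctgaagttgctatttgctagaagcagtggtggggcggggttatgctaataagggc
Cxcl13 (chr5:95956689-95956938, plus strand): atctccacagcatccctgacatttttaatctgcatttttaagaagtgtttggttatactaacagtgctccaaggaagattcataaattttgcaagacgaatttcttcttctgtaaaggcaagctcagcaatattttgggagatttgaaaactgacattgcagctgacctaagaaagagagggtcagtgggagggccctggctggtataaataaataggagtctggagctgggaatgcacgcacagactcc

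MHC class I genes rose with them. Class I molecules, made of a heavy chain and beta-2 microglobulin, show peptides from inside the cell to CD8 T cells after loading by TAP and tapasin. Of 23 genes of this pathway 13 (56.5%) rose and 2 fell, against 17.0% and 15.0% of all genes, with a median of 0.22. H2-K1, a classical heavy chain, stood at 1654 and 1663 CPM in AD CKO and 862 and 862 CPM in AD WT libraries (0.94 ± 0.04, adjusted p = 1.01e-17), and B2m at 6153 and 5867 CPM in AD CKO and 3984 and 3916 CPM in AD WT libraries (0.61 ± 0.03, adjusted p = 3.42e-14). H2-D1 stood at 6091 and 6087 CPM in AD CKO and 2918 and 3044 CPM in AD WT libraries (1.03). The peptide transporter subunit Tap1 (0.82) and the class I transactivator Nlrc5 (1.05) rose. H2-Q6 (1.98) and H2-Q7 (2.02) rose most among these 23, which do not include H2-M2 given above, but their sequences are nearly identical and reads may have been shared. The 2 members that fell, the immunoproteasome gene Psmb8 (−0.16) and the chaperone Pdia3 (−0.13), no longer passed without AD WT replicate 2, with −0.12 and −0.14. Psmb8 also did not pass without AD CKO replicate 1 (−0.15). Pdia3 did not pass without AD WT replicate 1 (−0.12) or AD CKO replicate 2 (−0.09). The loading chaperone gene Calr (−0.07) did not pass.

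The NF-kB consensus stood in 10 of 22 class I promoters (45.5%) and in 11 of 25 promoters of the cytokine and NF-kB list (44.0%), against 8.46% of all promoters. H2-K1 and B2m carry it in the 250 bases before the start, B2m together with an interferon response element that does not overlap it. Nfkb2, the p100 subunit described below, carries it close to its start.
H2-K1 (chr17:34000334-34000583, minus strand): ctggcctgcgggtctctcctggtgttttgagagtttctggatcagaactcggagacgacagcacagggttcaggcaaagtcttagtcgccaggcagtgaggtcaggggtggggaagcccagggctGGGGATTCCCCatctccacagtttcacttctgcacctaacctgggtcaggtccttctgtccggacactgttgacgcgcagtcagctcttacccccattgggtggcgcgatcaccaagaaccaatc
B2m (chr2:122147437-122147686, plus strand): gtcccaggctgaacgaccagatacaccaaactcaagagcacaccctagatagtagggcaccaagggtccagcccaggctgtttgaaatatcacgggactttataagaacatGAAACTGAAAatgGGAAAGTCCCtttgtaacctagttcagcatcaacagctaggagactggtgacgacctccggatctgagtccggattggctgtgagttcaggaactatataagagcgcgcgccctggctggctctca
Nfkb2 (chr19:46304487-46304736, plus strand): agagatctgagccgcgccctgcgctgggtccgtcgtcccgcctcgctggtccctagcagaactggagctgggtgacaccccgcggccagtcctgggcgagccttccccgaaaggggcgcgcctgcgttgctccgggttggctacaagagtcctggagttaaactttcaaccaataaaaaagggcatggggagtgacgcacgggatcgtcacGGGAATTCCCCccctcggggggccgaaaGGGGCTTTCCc

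**Figure D3:**
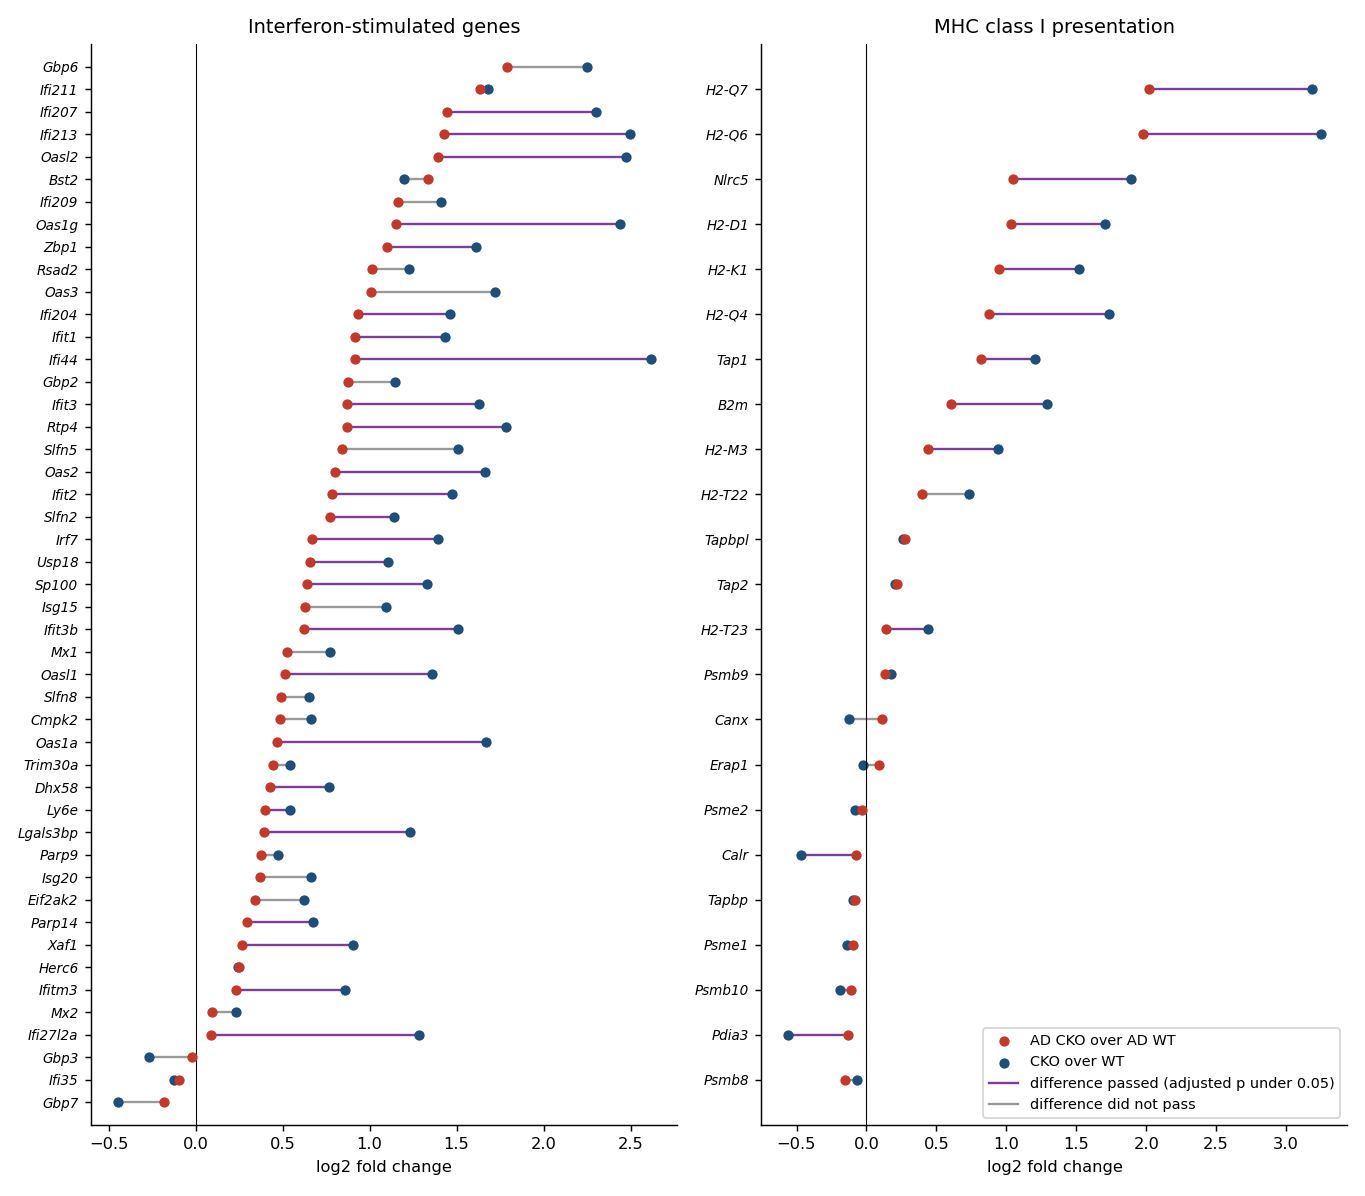
Log2 fold changes of 47 interferon-stimulated genes (left) and 23 MHC class I genes (right), AD CKO over AD WT in red and CKO over WT in blue, joined in purple where the interaction passed. The red points lie above 0 for most genes and, where the line is purple in the left panel, below the blue points. The medians of the interferon genes were 0.64 within the model and 1.23 without it.

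MHC class II and costimulation rose in part. Class II molecules show extracellular peptides to CD4 T cells, which also need a costimulatory signal. Of 17 such genes 10 (58.8%) rose and 2 (11.8%) fell, against 17.0% and 15.0% of all genes, with a median of 0.38. Besides Cd40, the costimulatory ligand gene Cd80 stood at 38.9 and 39.0 CPM in AD CKO and 17.0 and 19.1 CPM in AD WT libraries (1.11) and Cd274, which encodes the inhibitory ligand PD-L1, at 141 and 143 CPM in AD CKO and 51.8 and 52.5 CPM in AD WT libraries (1.45 ± 0.06, adjusted p = 5.26e-17). The class II chains H2-Eb1 (0.75), H2-Ab1 (0.38) and H2-Aa (0.33) rose by less than 2-fold. Cd86 (−0.04) and the invariant chain Cd74 (0.05) did not pass, and the class II modulator genes H2-DMa (−0.28) and H2-Oa (−1.0) fell.

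Chemokine genes moved in both directions. Of 19 tested, 9 rose and 7 fell (47.4% and 36.8%, against 17.0% and 15.0% of all genes). Cxcl10, an interferon-inducible chemokine for T cells, stood at 79.6 and 76.6 CPM in AD CKO and 14.6 and 17.4 CPM in AD WT libraries (2.29 ± 0.09, adjusted p = 2.66e-17). The monocyte attractants Ccl2 (1.00), Ccl12 (1.06) and Ccl8 (1.75) rose, as did Cxcl16, a membrane-bound scavenger and ligand of CXCR6, with 343 and 364 CPM in AD CKO and 159 and 165 CPM in AD WT libraries (1.13 ± 0.05, adjusted p = 2.86e-16). Ccl3 and Ccl4, which microglia make quickly on activation, fell. Ccl4 stood at 240.2 and 261 CPM in AD CKO and 448 and 454 CPM in AD WT libraries (−0.85 ± 0.05, adjusted p = 8.11e-14) and Ccl3 at 307 and 287 CPM in AD CKO and 462 and 465 CPM in AD WT libraries (−0.64). Ccl6 had a larger fall, with 304 and 313 CPM in AD CKO and 797 and 774 CPM in AD WT libraries (−1.35 ± 0.04, adjusted p = 4.14e-19). Of the 14 receptor genes 3 rose and 7 fell, so that the receptors leaned downward (median −0.28) and the ligands upward (median 0.28). Cxcr4 stood at 13.9 and 16.4 CPM in AD CKO and 3.17 and 3.09 CPM in AD WT libraries (2.27 ± 0.17, adjusted p = 3.77e-11), whereas the fractalkine receptor Cx3cr1, a microglial marker, stood at 1804 and 1741 CPM in AD CKO and 3219 and 3508 CPM in AD WT libraries (−0.92 ± 0.05, adjusted p = 8.30e-08). Ccr6 (−0.82) fell.

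Among inflammatory cytokines and NF-kB targets, Tnf rose and Il1b fell. Tnf, the gene for tumour necrosis factor, stood at 42.9 and 45.1 CPM in AD CKO and 16.6 and 15.4 CPM in AD WT libraries (1.46 ± 0.10, adjusted p = 1.45e-12). Il1b, the gene for interleukin-1 beta, stood at 30.1 and 29.1 CPM in AD CKO and 58.3 and 62.9 CPM in AD WT libraries (−1.03 ± 0.08, adjusted p = 1.81e-11). The groups did not overlap for either gene, and Il1a (−0.01) and Il6 (0.21) did not pass. Over 25 tested members 10 rose and 3 fell (5 fell with the 1 CPM filter), against 17.0% and 15.0% of all genes. The share that fell is near that of all genes. Of the NF-kB subunits, Nfkb2, which encodes p100, stood at 86.1 and 94.8 CPM in AD CKO and 45.5 and 44.8 CPM in AD WT libraries (1.00 ± 0.07, adjusted p = 1.02e-11) and Relb, its partner, at 85.5 and 91.0 CPM in AD CKO and 42.4 and 43.8 CPM in AD WT libraries (1.03). The coactivator gene Bcl3 (1.35) rose. Rel (−0.03) did not pass and Nfkb1 (−0.30) fell. The interleukin-1 receptor antagonist gene Il1rn rose (0.90), and Il1r1 fell (−0.86).

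Sensors upstream of these cytokines rose more often than they fell. Of 25 Toll-like receptor and adaptor genes 10 rose and 2 fell. The count that fell was 4 with the 1 CPM filter, the 4 libraries alone, the replicate block or the length offset. Of 15 inflammasome and pyroptosis genes 8 rose and 3 fell. Among all genes 17.0% rose and 15.0% fell, so the counts that fell do not stand out in either list. Tlr2, which senses bacterial lipoproteins and has been linked to amyloid, stood at 834 and 768 CPM in AD CKO and 278 and 266 CPM in AD WT libraries (1.56 ± 0.05, adjusted p = 3.95e-20), and the endosomal Tlr8 at 38.9 and 36.1 CPM in AD CKO and 4.70 and 4.92 CPM in AD WT libraries (2.96 ± 0.12, adjusted p = 5.02e-17). The adaptor gene Myd88 (−0.02) did not pass. Of the inflammasome genes, the bacterial sensors Naip2 (0.72) and Naip5 (0.55) rose, the adaptor Pycard (−0.36) fell and Nlrp3 (0.11) did not pass.

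Complement genes were uneven. Of 19 genes 6 rose and 3 fell (31.6% and 15.8%), the second share close to the 15.0% of all genes. C3, the central complement component, which tags synapses and debris for uptake, stood at 105 and 102 CPM in AD CKO and 20.3 and 18.2 CPM in AD WT libraries (2.42 ± 0.08, adjusted p = 2.63e-19). The receptors of the fragments C3a and C5a rose too, with C3ar1 at 932 and 895 CPM in AD CKO and 558 and 568 CPM in AD WT libraries (0.70) and C5ar1 at 473 and 459 CPM in AD CKO and 178 and 183 CPM in AD WT libraries (1.37 ± 0.04, adjusted p = 2.30e-19). The C1q chains, which start the classical pathway, gave small values in both directions, C1qa (0.16), C1qb (0.17) and C1qc (−0.35). Of these C1qb passed, but not with limma-voom (0.18), while C1qc did not pass, but did with DESeq2 (−0.36), no filter (−0.36), the replicate block (−0.35) and without AD CKO replicate 2 (−0.47).

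Genes that respond to p53 rose more often than they fell. p53 is activated by DNA damage and by ribosomal stress and halts the cell cycle through p21. Of 30 genes for p53 targets, cell cycle inhibitors and apoptosis 15 rose and 2 fell, or 1 fell with AD WT replicate 2 or either AD CKO library left out, against 17.0% and 15.0% of all genes. Their median was 0.40. Cdkn1a, which encodes p21, stood at 384 and 416 CPM in AD CKO and 66.3 and 62.8 CPM in AD WT libraries (2.63 ± 0.06, adjusted p = 6.24e-20). Ccng1 stood at 262 and 253 CPM in AD CKO and 80.4 and 79.4 CPM in AD WT libraries (1.69 ± 0.06, adjusted p = 4.44e-19), and the pro-apoptotic Bax at 103 and 103 CPM in AD CKO and 57.0 and 56.7 CPM in AD WT libraries (0.86). Each AD CKO value was above each AD WT value for these. Others were the exonuclease Aen (1.17), the RNA-binding Zmat3 (1.34), the autophagy regulator Trp53inp1 (0.91) and Mdm2 (0.52), the ligase that degrades p53. Eda2r, the receptor of ectodysplasin A2, had 3.59 and 2.45 CPM in AD CKO and 0.170 and 0.103 CPM in AD WT libraries (4.42), where the AD WT values are too low for its size to be read closely. Trp53 itself did not pass (−0.05), and Btg2, a target that is also an immediate early gene, fell (−1.02).

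Proliferation genes did not fall as one block. Of 37 cell cycle genes 6 (16.2%) rose, close to the 17.0% of all genes, and 12 (32.4%) fell, with a median of −0.24. The count that fell was 7 without AD WT replicate 1 and 4 without AD CKO replicate 1. The mitotic genes Plk1 (−0.84) and Ccnb2 (−0.73) and the microtubule regulator Stmn1 (−0.85) fell, while the replication clamp Pcna (0.37) and the cyclin Ccnd1 (0.51) rose.

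Most immediate early genes fell. These genes, which are transcribed within minutes of a stimulus, also rise when tissue is dissociated, and how these cells were isolated is not given in the sources used here. Of 31 genes 20 (64.5%) fell and 4 rose, against 15.0% and 17.0% of all genes, with a median of −0.69. Fos stood at 512 and 484 CPM in AD CKO and 1036 and 1050 CPM in AD WT libraries (−1.07 ± 0.04, adjusted p = 1.47e-17), and Egr1 at 219.6 and 227 CPM in AD CKO and 694 and 661 CPM in AD WT libraries (−1.60 ± 0.05, adjusted p = 3.58e-20). Atf3, a stress-induced repressor, stood at 74.2 and 68.7 CPM in AD CKO and 275 and 254 CPM in AD WT libraries (−1.89 ± 0.06, adjusted p = 5.75e-20). These 3 genes were lower in each AD CKO library than in each AD WT library. Others were Jun (−1.08), Ier2 (−1.42), Klf2 (−1.35) and Zfp36 (−0.69), which encodes the mRNA-destabilising protein tristetraprolin. The heat shock genes Hspa1a (−0.88) and Hspa1b (−1.05), which are near-identical copies, fell too. Against these, Rgs1 (0.41) and Dusp6 (0.17) rose, and the count that rose was 2 without AD WT replicate 2 or either AD CKO library. The CArG box of serum response factor stood in 5 of 32 promoters of this list (15.6%), which belong to 2 genes, against 1.63% of all promoters.

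Most homeostatic microglial genes fell. Of 24 genes 15 (62.5%) fell and 5 (20.8%) rose, against 15.0% and 17.0% of all genes, so that the share that rose is near that of all genes. The median was −0.31. Siglech, a sialic acid-binding receptor of resting microglia, stood at 672 and 657 CPM in AD CKO and 1689 and 1696 CPM in AD WT libraries (−1.35 ± 0.04, adjusted p = 3.65e-21). Csf1r, the receptor on which microglia depend for survival, stood at 7076 and 7197 CPM in AD CKO and 10720 and 10980 CPM in AD WT libraries (−0.60 ± 0.03, adjusted p = 1.71e-15). Both were lower in each AD CKO library. Tmem119 (−0.35), Olfml3 (−0.82), Crybb1 (−1.53) and Cst3 (−0.69) fell as well. The purinergic receptor genes P2ry13 (0.30) and P2ry6 (0.35) of the same list rose. P2ry12 stood at 4247 and 4015 CPM in AD CKO and 3897 and 3791 CPM in AD WT libraries (0.10 ± 0.03, adjusted p = 0.0125). This small rise no longer passed with no filter (0.09) or without CKO replicate 1 (0.09), AD CKO replicate 1 (0.05) or AD WT replicate 2 (0.09). Sall1, a transcription factor that sets microglial identity, was not changed detectably (0.00 ± 0.04, adjusted p = 0.999), nor were Spi1 (−0.07) and Irf8 (0.07).

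Other factors of the myeloid lineage did change, 7 up and 6 down of 24, with 4 up without AD CKO replicate 1. The shares of all genes were 17.0% up and 15.0% down, so without that library the share up was near that of all genes. Mef2c (−0.44), known to act at microglial enhancers, and Cebpa (−0.31) fell. Tfeb (0.38), which drives lysosomal genes, rose. Bhlhe41 (0.89) rose and its paralog Bhlhe40 (−1.17), which acts with it in lipid-associated macrophages, fell. Ahr, the aryl hydrocarbon receptor, had 11.5 and 11.7 CPM in AD CKO and 2.83 and 4.54 CPM in AD WT libraries (1.65).

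Border macrophage markers were higher in the same libraries. Of 9 such markers 5 (55.6%) rose and none fell, against 17.0% and 15.0% of all genes. Their sums were 850.3 and 873 CPM in AD CKO and 505 and 508 CPM in AD WT. Ms4a7, given above, and Mrc1, the mannose receptor, with 151 and 141 CPM in AD CKO and 62.1 and 62.9 CPM in AD WT libraries (1.22 ± 0.06, adjusted p = 6.12e-16), rose most. The markers Lyve1 (−0.15), Cd163 (−0.12) and Cbr2 (0.19), which are high in perivascular and meningeal macrophages, did not pass. Whether the proportion of such macrophages contributed to any of these values was not tested.

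Disease-associated microglial genes went in both directions. Of 34 genes 13 rose and 12 fell (38.2% and 35.3%, against 17.0% and 15.0% of all genes, median 0.03). Lyz2, a lysozyme of myeloid cells, stood at 7721 and 7551 CPM in AD CKO and 2428 and 2365 CPM in AD WT libraries (1.67 ± 0.03, adjusted p = 2.21e-24). Gpnmb, a lysosomal glycoprotein, stood at 352 and 343 CPM in AD CKO and 139 and 134 CPM in AD WT libraries (1.35 ± 0.07, adjusted p = 6.14e-11), and Spp1, which encodes osteopontin, at 1027 and 952 CPM in AD CKO and 482 and 466 CPM in AD WT libraries (1.06 ± 0.04, adjusted p = 5.02e-17). Apoe, a lipid carrier, stood at 16180 and 16100 CPM in AD CKO and 9608 and 9757 CPM in AD WT libraries (0.74 ± 0.04, adjusted p = 1.91e-09) and Lpl, lipoprotein lipase, at 625 and 600.5 CPM in AD CKO and 389 and 373 CPM in AD WT libraries (0.69 ± 0.04, adjusted p = 1.47e-12). Trem2, the lipid and amyloid receptor that drives this state, rose (0.45 ± 0.04, adjusted p = 2.80e-09), while Tyrobp, which encodes its signalling adaptor DAP12, fell, with 1185 and 1327 CPM in AD CKO and 2160 and 2151 CPM in AD WT libraries (−0.78 ± 0.04, adjusted p = 3.07e-12). Itgax (−0.83), Cst7 (−0.70), Csf1 (−0.81) and Fabp5 (−0.93) also fell. Clec7a (−0.04), Cd9 (0.05) and Cd68 (0.03) did not pass. Neither direction prevailed among the members.

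Of 29 genes for phagocytic, scavenger and Fc receptors and their ligands 13 (44.8%) rose and 8 (27.6%) fell. Of all genes 17.0% rose and 15.0% fell. Msr1, the class A scavenger receptor that binds amyloid, stood at 59.5 and 55.2 CPM in AD CKO and 17.8 and 15.8 CPM in AD WT libraries (1.77 ± 0.10, adjusted p = 4.46e-14). Cd36 (1.04) and Olr1 (1.53), scavengers of oxidised lipoprotein, rose, as did the integrin chain Itgb2 (0.41). The genes Mfge8 (−0.97) and Gas6 (−0.67), for proteins that bridge dying cells to phagocytes, fell, and so did the inhibitory Fc receptor Fcgr2b, with 193 and 199 CPM in AD CKO and 439.5 and 445 CPM in AD WT libraries (−1.17 ± 0.04, adjusted p = 4.00e-18). Among 26 inhibitory and paired myeloid receptors 11 (42.3%) rose and 7 (26.9%) fell, with Siglec1 (1.38) and Pilra (1.06) up and Sirpa (−0.38) and Siglecf (−0.87) down.

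Lysosomal genes were nearly balanced, 12 rising and 16 falling among 47 (median −0.01). Man2b1, lysosomal alpha-mannosidase, stood at 847 and 822 CPM in AD CKO and 1657 and 1704 CPM in AD WT libraries (−1.01 ± 0.04, adjusted p = 3.56e-18), and Grn, progranulin, at 2538 and 2563 CPM in AD CKO and 3915 and 3969 CPM in AD WT libraries (−0.63 ± 0.03, adjusted p = 8.25e-15). The cathepsin gene Ctsl (−0.69) fell, while Ctss (−0.02) did not pass. Alpha-galactosidase A rose, with Gla at 57.1 and 56.9 CPM in AD CKO and 22.3 and 21.8 CPM in AD WT libraries (1.37 ± 0.09, adjusted p = 9.85e-13), as did the proton pump subunit gene Atp6v1a (0.30). Of 27 autophagy genes 6 (22.2%) rose and 4 (14.8%) fell, shares near the 17.0% and 15.0% of all genes, and the count that fell was 1 without AD WT replicate 1, 2 without AD WT replicate 2 and 1 without AD CKO replicate 2. Among them Atg7 (0.47) rose and Map1lc3a (−0.54) fell.

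Cholesterol synthesis genes leaned upward, with 10 (40%) up and 1 down of 25 against 17.0% and 15.0% of all genes. The median was 0.16, and 5 were up without AD WT replicate 2. Cyp51, a lanosterol demethylase, stood at 58.6 and 54.0 CPM in AD CKO and 34.7 and 30.5 CPM in AD WT libraries (0.79 ± 0.09, adjusted p = 3.46e-08), and Sqle, squalene epoxidase, had a log2 fold change of 0.68. Among 29 genes of lipid storage and transport 11 (37.9%) rose and 10 (34.5%) fell. The lysosomal acid lipase Lipa (0.61) was up and the desaturase Scd2 (−0.54) down.

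Most cytosolic ribosomal protein genes fell. RACK1 is part of the small subunit, and ribosomal protein mRNAs share a start of a C followed by pyrimidines, the terminal oligopyrimidine (TOP) tract, through which the mTOR pathway sets their translation. Of 32 small subunit genes other than Rack1 27 (84.4%) fell and none rose, with a median of −0.49. Of 47 large subunit genes 39 (83.0%) fell and none rose, with a median of −0.42. Of all genes 15.0% fell. Rps27 stood at 23.9 and 28.6 CPM in AD CKO and 49.9 and 46.6 CPM in AD WT libraries (−0.87 ± 0.10, adjusted p = 5.96e-08), and Rps21 at 5.34 and 6.36 CPM in AD CKO and 12.3 and 9.52 CPM in AD WT libraries (−0.89 ± 0.18, adjusted p = 3.13e-04). Rpl14 stood at 44.0 and 47.6 CPM in AD CKO and 68.9 and 68.7 CPM in AD WT libraries (−0.58). The AD CKO libraries were below the AD WT libraries in each of these genes, but the falls were smaller than that of Rack1, whose log2 fold change was −1.26. The subunit genes Rpsa (0.01), Rps2 (−0.04), Rplp0 (−0.02) and Rpl5 (−0.07) did not pass. Many ribosomal protein genes have processed pseudogenes with near-identical sequence, so single values are uncertain.

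The falls were not shared by all of the translation apparatus. Of 49 mitochondrial ribosomal protein genes 6 (12.2%) rose and 1 (2.04%) fell, both under the shares of all genes, with a median of 0.07. With an offset for transcript length 10 of the 49 rose and none fell, with a median of 0.11. Without AD WT replicate 2 or without AD CKO replicate 2, 1 of the 49 rose. Of 31 ribosome biogenesis genes 14 (45.2%) rose and 3 (9.68%) fell, with Rrp12 (0.66) and Bysl (0.58) up and Myc (−0.45) down. Without AD WT replicate 2, 9 rose, while without AD WT replicate 1, 1 fell. Translation factors had 9 up and 12 down of 41, and 3 up without AD WT replicate 1, 5 without AD WT replicate 2 and 4 without AD CKO replicate 1. Elongation factor genes, whose mRNAs also carry TOP tracts, were among those that fell, with Eef1a1 at 1093 and 1054 CPM in AD CKO and 1390 and 1375 CPM in AD WT libraries (−0.37 ± 0.04, adjusted p = 3.54e-09) and Eef2 (−0.38) and Eef1b2 (−0.42) besides, as were the initiation factor 3 subunits Eif3f (−0.51), Eif3h (−0.45) and Eif3k (−0.42). Eif5 rose, with 330.4 and 315 CPM in AD CKO and 203 and 191 CPM in AD WT libraries (0.71 ± 0.05, adjusted p = 3.09e-12), and so did Eif4g2 (0.65), which supports initiation without a cap. Of 20 genes of ribosome collision sensing and quality control, the work in which RACK1 takes part, 3 rose and 1 fell, shares (15.0% and 5.0%) at or under the 17.0% and 15.0% of all genes, so the list does not stand out. The collision-activated kinase Map3k20 stood at 44.3 and 44.8 CPM in AD CKO and 27.9 and 25.5 CPM in AD WT libraries (0.74 ± 0.09, adjusted p = 2.38e-07) and Zfp598, a ligase that marks collided ribosomes, did not pass (0.07).

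A C at the RefSeq start followed by at least 4 pyrimidines stood in 14 of 68 promoters of the 2 ribosomal protein lists (20.6%), which cover 58 of their 79 genes, against 2.51% of all promoters and 5.88% of those of nuclear oxidative phosphorylation genes. Starts are those of RefSeq and may differ from the true ones by a few bases, so tracts may be missed. Rack1 itself has such a start. The windows below run from 30 bases before the start to 15 after it (GRCm38.p6), with the tract in capitals, for Rack1 and for genes of both subunits. The ribosomal protein genes shown were picked among those with such a start that also fell, so they do not link the tract to the fall.
Rack1 (chr11:48800330-48800374, plus strand): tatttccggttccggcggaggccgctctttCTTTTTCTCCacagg
Rps27 (chr3:90213634-90213678, minus strand): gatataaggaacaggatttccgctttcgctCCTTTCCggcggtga
Rps21 (chr2:180257349-180257393, plus strand): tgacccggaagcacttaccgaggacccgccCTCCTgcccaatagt
Rps6 (chr4:86857353-86857397, minus strand): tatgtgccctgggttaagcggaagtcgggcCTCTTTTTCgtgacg
Rpl14 (chr9:120571487-120571531, plus strand): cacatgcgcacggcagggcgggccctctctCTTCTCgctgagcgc

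Nuclear-encoded oxidative phosphorylation genes fell beside the ribosomal ones. Of 75 tested 50 (66.7%) fell, against 15.0% of all genes, with a median of −0.26, and 29 fell without AD WT replicate 1. The cytochrome c gene Cycs (0.19) rose, but did not pass with DESeq2 (0.18), no filter (0.18) or the length offset (0.16). Nor did it pass without CKO replicate 1 (0.18), AD WT replicate 1 (0.14), AD CKO replicate 1 (0.17) or AD CKO replicate 2 (0.20). Ndufa1, a complex I subunit, stood at 42.0 and 47.1 CPM in AD CKO and 82.0 and 81.1 CPM in AD WT libraries (−0.87 ± 0.07, adjusted p = 2.89e-10), and Cox6a1 and Cox4i1, subunits of complex IV, fell by 0.57 and 0.45 on the log2 scale. Of the 13 protein genes of the mitochondrial genome 7 (53.8%) fell and 1 (7.69%) rose, with a median of −0.21. Here mt-Cytb stood at 1218 and 1280 CPM in AD CKO and 1525 and 1512 CPM in AD WT libraries (−0.28). mt-Nd4l was at 0 in both AD CKO libraries and at 59 and 14 counts in the AD WT libraries. Its fall no longer passed with the 1 CPM filter (−8.24) or without WT replicate 2 (−8.24), AD CKO replicate 1 (−8.26) or AD CKO replicate 2 (−8.22). That of mt-Co1 no longer passed without AD WT replicate 2 (−0.11). Ribosomal protein and respiratory chain transcripts are short, and in the fifth of genes with transcripts of at most 1557 bases 15.6% fell and 12.1% rose, with a median of −0.06. With an offset for transcript length 25 of 32 small subunit, 33 of 47 large subunit and 36 of 75 oxidative phosphorylation genes fell, with medians of −0.42, −0.35 and −0.19. Glycolysis genes were mixed, 5 (20.8%) up and 8 (33.3%) down of 24, against 17.0% and 15.0% of all genes. The lactate exporter Slc16a3 (0.64) rose.

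**Figure D4:**
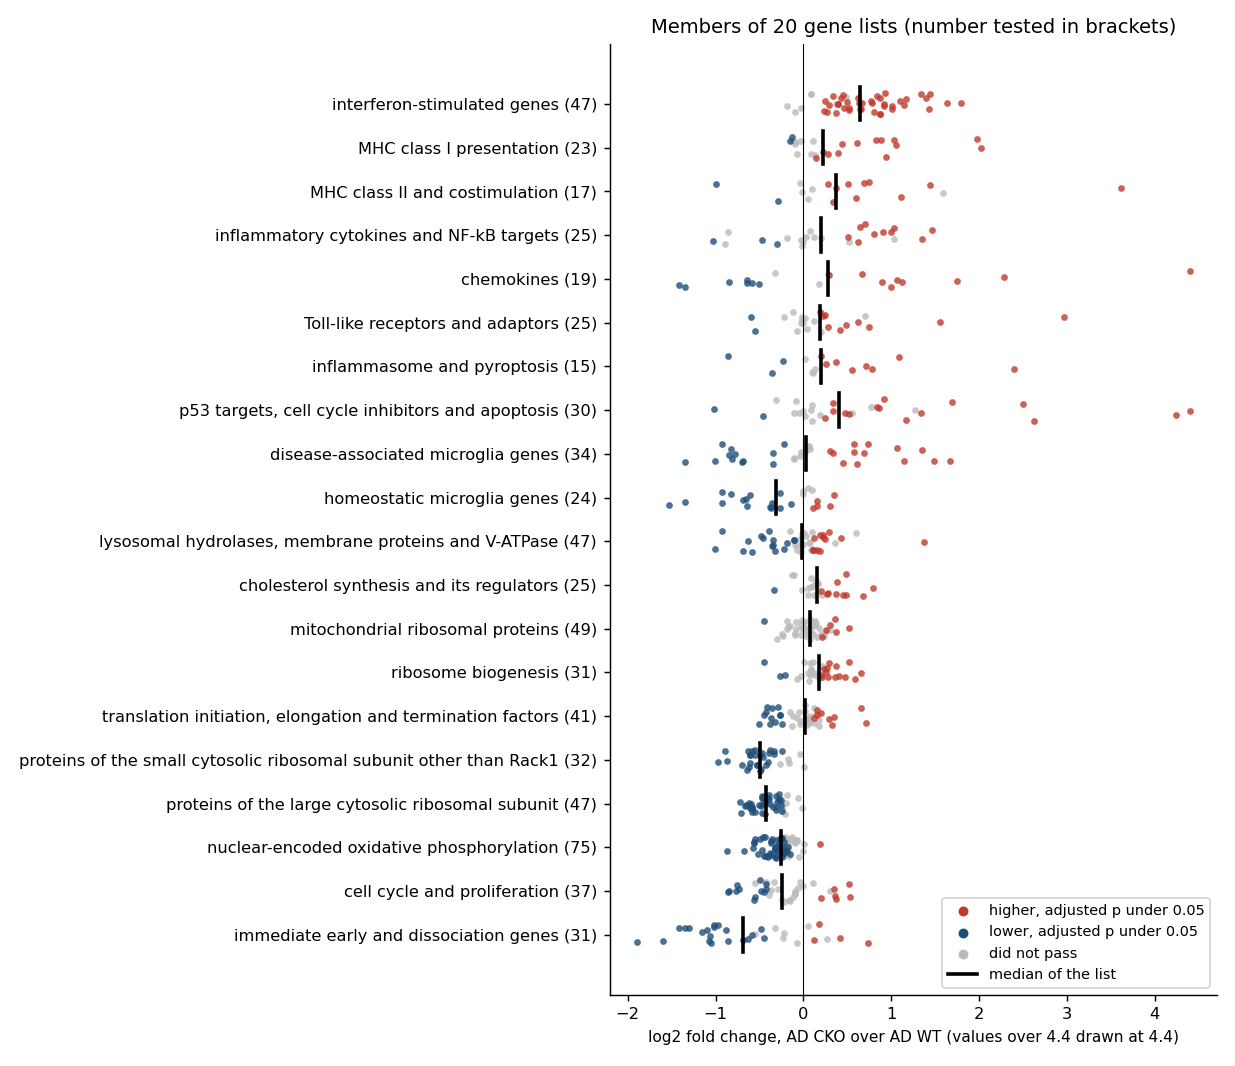
Log2 fold change of AD CKO over AD WT for each tested member of 20 gene lists, with members that rose in red, members that fell in blue, the others in grey and the list's median as a black bar. Values over 4.4 are drawn at 4.4. Interferon-stimulated genes (median 0.64) lie to the right of 0, and the ribosomal protein lists (−0.49 and −0.42) and immediate early genes (−0.69) to the left, while disease-associated genes (0.03) spread to both sides.

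Stress and unfolded protein genes went both ways, 10 (35.7%) up and 6 (21.4%) down of 28, against 17.0% and 15.0% of all genes. Without AD WT replicate 2, 6 were up and 3 down. Xbp1, a transcription factor of the unfolded protein response that also serves immune cells, stood at 764 and 730.3 CPM in AD CKO and 269 and 266 CPM in AD WT libraries (1.48 ± 0.04, adjusted p = 1.50e-20). The chaperone Hspa5 (0.35) and Herpud1 (0.49) rose by less. Targets of the integrated stress response did not move together, with Sesn2 (0.69) up, Ppp1r15a (−0.69) down and Atf4 (0.13) and Ddit3 (0.11) not passing. Of 22 reported binding partners of RACK1, 7 (31.8%) rose and 7 (31.8%) fell, or 4 rose without AD CKO replicate 1. The kinase genes Src (0.93) and Prkca (−0.68) were at the 2 sides.

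Oxidant and iron genes rose more often than they fell, 12 (42.9%) and 6 (21.4%) of 28, against 17.0% and 15.0% of all genes. The count that fell was 3 without AD WT replicate 1 and 3 without AD WT replicate 2. Cybb, the catalytic subunit of the phagocyte NADPH oxidase, stood at 486 and 468 CPM in AD CKO and 105 and 97.5 CPM in AD WT libraries (2.24 ± 0.05, adjusted p = 1.56e-22). Cp, which encodes the ferroxidase ceruloplasmin, had 143 and 129 CPM in AD CKO and 50.7 and 51.1 CPM in AD WT libraries (1.42 ± 0.06, adjusted p = 1.35e-16). The ferritin chains Ftl1 (0.70) and Fth1 (0.30) and the antioxidant factor Nfe2l2 (0.76) rose too, and Slc11a1 (−0.63) and Gpx4 (−0.28) fell.

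Matrix, adhesion and growth factor genes changed in both directions. Of 30 matrix and adhesion genes 10 (33.3%) rose and 11 (36.7%) fell, against 17.0% and 15.0% of all genes. Mmp2, a gelatinase, stood at 148 and 150 CPM in AD CKO and 33.0 and 36.1 CPM in AD WT libraries (2.11 ± 0.06, adjusted p = 4.47e-20), and Mmp12, the macrophage elastase, at 79.0 and 75.5 CPM in AD CKO and 21.1 and 19.5 CPM in AD WT libraries (1.93 ± 0.09, adjusted p = 8.32e-16). The integrin gene Itga4 (1.5) and its ligand Vcam1 (1.76) rose, whereas Thbs1 (−1.60), Adamts1 (−1.40) and Fn1 (−0.78) fell. Of 25 growth factor and receptor genes 8 (32.0%) rose and 12 (48.0%) fell. Among them Vegfa (1.48) and Igf1 (0.57) were up and Tgfa (−0.55) and Igf1r (−0.81) down. Of 30 genes of TGF-beta family signalling 5 rose and 5 fell (16.7% each, near the 17.0% and 15.0% of all genes, and 2 fell without AD WT replicate 2 or AD CKO replicate 1). Besides Gdf3, Gdf15 (2.50) rose, Tgfb1 (−0.30) fell and Tgfbr1 did not pass (−0.00).

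Lipid mediator and purinergic genes were mixed. Of 23 prostaglandin and leukotriene genes 7 (30.4%) rose and 6 (26.1%) fell, against 17.0% and 15.0% of all genes. Hpgd, which inactivates prostaglandins, stood at 159 and 153 CPM in AD CKO and 296 and 288 CPM in AD WT libraries (−0.90 ± 0.05, adjusted p = 4.88e-15), and Mgll, which breaks down an endocannabinoid, at 16.6 and 18.4 CPM in AD CKO and 45.9 and 41.1 CPM in AD WT libraries (−1.31 ± 0.09, adjusted p = 3.62e-12). Ptger4 (0.95), which encodes a prostaglandin E2 receptor, and Alox5ap (0.75) rose and Ptgs1 did not pass (0.01). Of 25 purinergic and ion channel genes 10 rose and 3 fell (5 without AD CKO replicate 1), with the potassium channel Kcnk13 (0.74) up and the beta-1 adrenergic receptor Adrb1 at 14.7 and 18.2 CPM in AD CKO and 47.7 and 46.4 CPM in AD WT libraries (−1.52 ± 0.16, adjusted p = 6.25e-05). Of 20 clock genes 3 rose and 3 fell (15.0% each), which is near the shares of all genes, and Arntl (0.01) did not pass.

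Of 22 genes of amyloid precursor processing and amyloid degradation 9 (40.9%) fell and 4 (18.2%) rose, with a median of −0.09. Of all genes 15.0% fell and 17.0% rose, so the share that rose is near that of all genes. App stood at 270 and 265 CPM in AD CKO and 294 and 304 CPM in AD WT libraries (−0.16 ± 0.04, adjusted p = 0.00526), and without AD WT replicate 2 its value was −0.14 and did not pass. Whether a transgene of the model adds reads to it cannot be told, since the model is not given in the sources used here. The count that rose was 1 without AD WT replicate 1 and 1 without AD CKO replicate 1. The sorting receptor Sorl1 (−0.61) and the endothelin-converting enzyme Ece1 (−0.57), which can degrade amyloid beta, fell. Ide (0.00) and Bace1 (−0.07) did not pass.

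The knockout was also tested without the model, and the difference between the effects was tested directly. CKO vs WT shares no library with AD CKO vs AD WT. It had 3059 genes higher (17.7%) and 2756 lower (15.9%), 5815 (33.6%) in all. Of the 2941 genes that rose within the model 1736 also rose without it, 59% of the first set and 56.8% of the second. Of the 2601 that fell 1397 also fell, 53.7% of the first set and 50.7% of the second. In opposite directions were 70 of the genes that rose and 270 of those that fell. The interaction passed for 2202 genes (12.7%), 957 of them with a higher log2 fold change within the model (5.53%) and 1245 with a lower one (7.19%). The first of these counts was 583 without AD WT replicate 1 and 526 without AD WT replicate 2.

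Interferon-stimulated genes rose less within the model than without it. Of 47, the interaction was below 0 in 26 and above 0 in none, against 7.19% and 5.53% of all genes, and the medians were 0.64 within and 1.23 without the model. Ifi44 had an interaction of −1.70 ± 0.19 (adjusted p = 2.59e-07), with 17.0 and 18.8 CPM in AD CKO and 9.84 and 9.14 CPM in AD WT libraries, against 28.5 and 23.9 CPM in CKO and 4.0 and 4.56 CPM in WT libraries. Oasl2 had an interaction of −1.08 ± 0.10 (adjusted p = 3.10e-09), with 105 and 105 CPM in CKO and 18.6 and 19.1 CPM in WT libraries. In both genes the AD WT values lay above the WT values and the AD CKO values below the CKO values. Over the 47 genes the sums were 5866 and 5859 CPM in AD CKO and 4110 and 4198 CPM in AD WT libraries. Without the model they were 5444 and 5488 CPM in CKO and 2983 and 3009 CPM in WT libraries. For the list the AD WT sums thus lay above the WT sums, but the AD CKO sums were not below the CKO sums. The median log2 fold change of AD WT over WT was 0.60. Of 23 class I genes 10 had an interaction below 0 and 2 above 0, with H2-D1 at −0.67 ± 0.05. Cxcl13 also rose less within the model, with 553 and 553 CPM in CKO and 0.676 and 0.925 CPM in WT libraries (interaction −1.34 ± 0.20, adjusted p = 2.83e-05). For the chemokine gene Cxcl10 (0.22, adjusted p = 0.299) no difference was detected.

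Homeostatic genes fell less within the model. Of 24, the interaction was above 0 in 17 and below 0 in none, against 5.53% and 7.19% of all genes. The medians were −0.31 within and −0.58 without the model. The list summed to 53610 and 53750 CPM in AD CKO and 75230 and 75500 CPM in AD WT libraries. Without the model the sums were 52090 and 52760 CPM in CKO and 87960 and 90200 CPM in WT libraries. The AD WT sums thus lay below the WT sums, while the AD CKO and CKO sums were close. Siglech had 539 and 533 CPM in CKO and 2046 and 2113 CPM in WT libraries, with an interaction of 0.61 ± 0.05 (adjusted p = 5.42e-10). P2ry12 rose within the model and stood at 5041 and 5033 CPM in CKO and 5689 and 5775 CPM in WT libraries without it (interaction 0.29 ± 0.04, adjusted p = 3.46e-05).

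Disease-associated genes differed in both directions, with 6 interactions above 0 and 18 below 0 among 34, against 5.53% and 7.19% of all genes. Spp1 stood at 132 and 132 CPM in CKO and 172 and 166 CPM in WT libraries, an interaction of 1.42 ± 0.06 (adjusted p = 8.28e-16), and Lpl at 84.8 and 79.8 CPM in CKO and 119 and 115 CPM in WT libraries, an interaction of 1.19 ± 0.07 (adjusted p = 1.79e-13). Both rose within the model and fell without it. Apoe went the other way, with 14930 and 15580 CPM in CKO and 3341 and 3721 CPM in WT libraries and an interaction of −1.37 ± 0.06 (adjusted p = 3.16e-10), and so did Axl, a receptor for apoptotic cells, with 778 and 809 CPM in AD CKO and 624 and 635 CPM in AD WT libraries, against 582 and 614 CPM in CKO and 183 and 187 CPM in WT libraries (interaction −1.36 ± 0.06, adjusted p = 5.37e-16). In Apoe and Axl the AD WT libraries lay above the WT libraries. Hpgd fell less within the model, with 79.0 and 78.6 CPM in CKO and 422 and 415 CPM in WT libraries (interaction 1.51 ± 0.06, adjusted p = 6.67e-16).

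Among 79 ribosomal protein genes 7 interactions passed, all below 0, and among 75 oxidative phosphorylation genes 2 were above and 4 below 0, so that neither list exceeded by much the 5.53% above and 7.19% below 0 of all genes. Mitochondrially encoded genes did differ, with 8 of 13 interactions below 0 and a median of 0.33 without the model, where mt-Co1 had 2555 and 2457 CPM in AD CKO and 2714 and 2801 CPM in AD WT libraries, against 3772 and 3777 CPM in CKO and 2361 and 2307 CPM in WT libraries (interaction −0.83 ± 0.05, adjusted p = 2.01e-13). Immediate early genes had 4 above and 6 below 0 among 31, with Egr1 (0.41) and Nr4a1 (−1.21) at the 2 sides.

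Most markers of several other cell types had interactions below 0, against 7.19% of all genes. The oligodendrocyte markers summed to 8238 and 8632 CPM in CKO and 3152 and 3295 CPM in WT libraries, a rise with the knockout where AD CKO had shown a lower sum than AD WT, and 6 of 10 interactions were below 0. Neutrophil markers summed to 629.5 and 629 CPM in CKO and 247 and 229.5 CPM in WT libraries, with 8 of 8 interactions below 0. Interactions were also below 0 for 9 of 11 astrocyte, 9 of 10 endothelial, 8 of 9 mural and 7 of 12 neuronal markers. The genes with the most negative interactions by rule are given at the end, and the part of other cells in them was not tested.

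**Figure D5:**
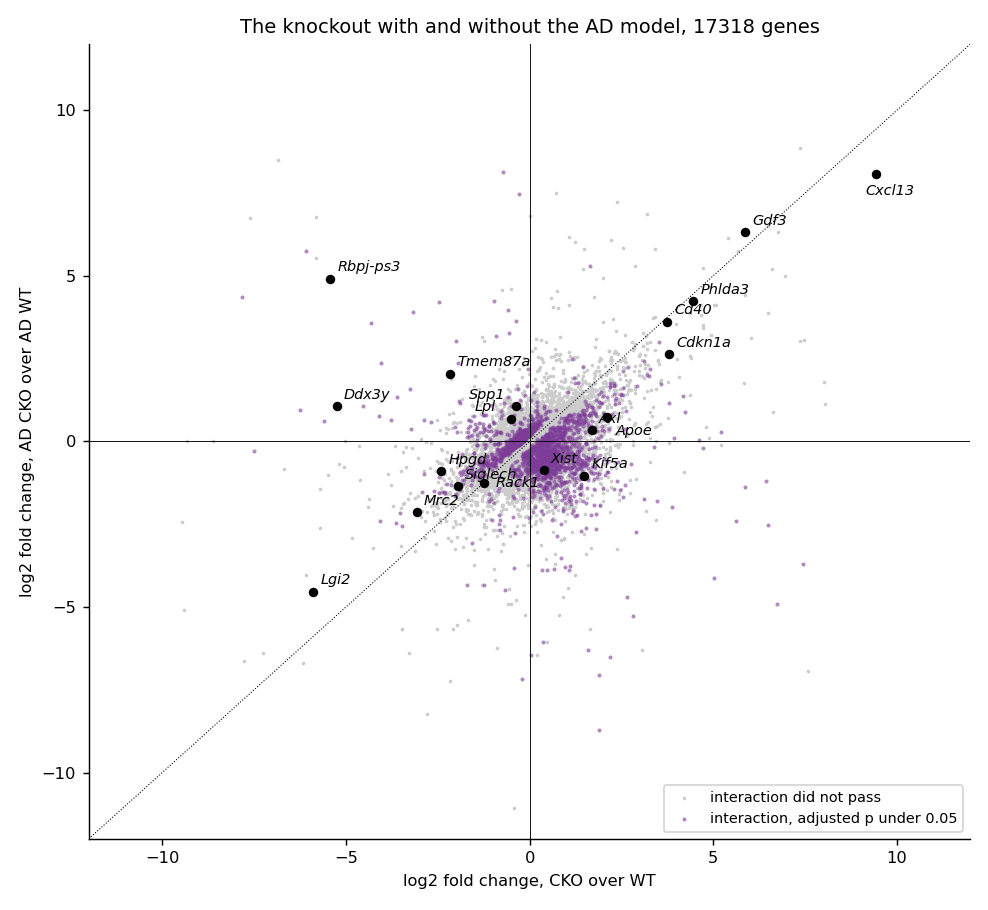
Log2 fold change of AD CKO over AD WT (vertical) against that of CKO over WT (horizontal) for 17318 genes, those with a passing interaction in purple, with the dotted line marking equal effects. The Pearson correlation over genes was 0.346, a description without a test because genes are not replicates. Cxcl13, Gdf3, Phlda3 and Cd40 lie far out near the line at the upper right and Lgi2 and Mrc2 at the lower left, while Rbpj-ps3, Tmem87a and Ddx3y lie where the effects have opposite signs.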

How the data were processed

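RNA was measured in 8 microglia libraries, 2 in each of the groups AD CKO, AD WT, CKO and WT. Per the labels' protocols, total RNA was extracted with TRIzol, treated with DNase I, amplified from 10 ng with SMART-Seq v4 chemistry, which does not mark strand, and read as pairs of 150 bases on a NovaSeq. Per the submitters' processing notes, fastp, HISAT2, StringTie and the build mm10 were used, and their versions, their roles and the counting step are not given in the sources used here. The table that the authors deposited holds expected counts per gene, not normalised, for 55414 features, and 27% to 33.6% of the non-zero values of a library are fractional. They were rounded to whole numbers. Features without a symbol (1401) held 0.0891% to 0.132% of the counts of a library and stayed out of the genes named. GENCODE M21 matched 52081 features (94%) and gave coordinates and lengths.

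In R 4.3.3 with edgeR 4.0.16, genes were filtered with filterByExpr by group, which kept 17318, and normalised by TMM over the 8 libraries. One robust quasi-likelihood model with a term per group gave AD CKO vs AD WT, CKO vs WT and the interaction, by two-sided F-tests with Benjamini-Hochberg adjustment over all genes tested. Differences pass at an adjusted p under 0.05. The common biological coefficient of variation was 0.0678. Standard errors are the log2 fold change divided by the root of F. The fit was tested on simulated counts with known changes. The replicate numbers are not said to pair libraries and were not used as pairs.

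Genes named are Rack1, the 12 largest changes in each direction among genes that passed with a mean of at least 5 CPM and groups that do not overlap, leaving out predicted and clone-like symbols, the 6 largest interactions in each direction, and members of gene lists. Some members of lists are counted but not reported here by name. Lists are described by counts and medians beside those of all genes, with no test of a list. The comparison, the lists and the motifs were chosen with earlier results of these data known, so no count over a list is independent evidence. Alternatives were RLE size factors, DESeq2 1.42.0, limma-voom (limma 3.58.1), other filters, the 4 libraries compared alone, a replicate block, an offset for transcript length and leaving out each library. Promoter sequences are RefSeq's (GRCm38.p6).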

Additional observations from a re-analysis of the deposited data

Results flagged for a closer look

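Of the interactions named by rule, 6 above 0 and 6 below 0 were taken as the points where the knockout effect differed most between mice with and without the AD model, each by the test of that difference (edgeR's quasi-likelihood F-test). No explanation was tested for any of them.

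Above 0 were 4 Y-linked genes, Ddx3y (interaction 6.32), Uty (5.59), Eif2s3y (4.94) and Kdm5d (3.13). Ddx3y, for one, stood at 62.0 and 60.3 CPM in AD CKO and 30.7 and 27.7 CPM in AD WT libraries, against 0.0324 and 0.314 CPM in CKO and 7.63 and 5.48 CPM in WT libraries. The processed pseudogene Rbpj-ps3 had an interaction of 10.35, with 14.6 and 14.6 CPM in AD CKO and 0.511 and 0.447 CPM in AD WT libraries, against 0 and 0.314 CPM in CKO and 6.60 and 6.87 CPM in WT libraries, so that it was high in AD CKO and WT and low in AD WT and CKO. Tmem87a, a membrane protein of the Golgi, showed the same pattern, with 24.8 and 24.3 CPM in AD CKO and 5.62 and 6.22 CPM in AD WT libraries, against 7.72 and 6.42 CPM in CKO and 33.0 and 30.1 CPM in WT libraries (interaction 4.20). In these 2 genes the direction of AD CKO over AD WT was opposite to that of CKO over WT. The libraries of a group lay close together, but where they came from 1 source of RNA this is technical spread only.

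Below 0 were genes that neurons or oligodendrocytes are known to express. The kinesin genes Kif5a (−2.52) and Kif1a (−2.55), which encode motors of axonal transport, Ank3 (−2.56), Mapk8ip2 (−2.57), Prr18 (−2.52) and Gnai1 (−2.58) each fell within the model and rose without it, except that Mapk8ip2 no longer passed within the model without AD WT replicate 2 (−0.49) or AD CKO replicate 2 (−0.47). Kif5a stood at 78.5 and 77.9 CPM in AD CKO and 159 and 161 CPM in AD WT libraries, against 356 and 369.8 CPM in CKO and 123 and 135 CPM in WT libraries, so the CKO libraries were the highest of the 8. The oligodendrocyte marker sums ran the same way over the groups, with 2268 and 2319 CPM in AD CKO, 3759 and 3761 CPM in AD WT, 8238 and 8632 CPM in CKO and 3152 and 3295 CPM in WT.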

How the results depend on the processing

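Calls of AD CKO vs AD WT kept their size under the 8 alternatives that did not leave out a single library. Fewer genes were called in each direction with an AD CKO or AD WT library left out than under any other alternative. With RLE size factors, DESeq2, limma-voom, no filter, a filter of 1 CPM in 2 libraries, the 4 libraries alone, a replicate block and an offset for transcript length, 2464 to 3160 genes were higher, against 2941, and 2385 to 2811 lower, against 2601. Leaving out each of the 8 libraries in turn gave 2075 to 3095 higher and 1829 to 2780 lower, taking the spread of the single library left in a group from the other groups. Interactions above 0 numbered 875 to 1350 under the alternatives that could be fitted, against 957, and 526 to 895 with a library left out, lowest without AD WT replicate 2 (526) and without AD WT replicate 1 (583). Interactions below 0 numbered 990 to 1354, against 1245, and 859 to 1078 with a library left out. Rack1 fell under every alternative run, and 263 of 274 genes named kept their direction and call under all 16. The interaction could not be fitted with the 4 libraries alone.

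Replicate numbers are not said to mark a shared animal or day. Deviations of same-numbered libraries correlated at −0.030 to 0.037 over all genes tested. Such a value cannot show whether a shared day or litter touched some genes, so pairing remains unknown. With the replicate block 3160 genes were higher and 2761 lower, and interactions numbered 1248 above and 1354 below 0. Genes under 1 CPM were rarely called at this depth, so that a change in them may have been missed, and with 2 libraries per group a p that misses the threshold does not show that values are equal.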
